A study of Mus musculus with 8 samples.

Results

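The genes described here are 44 lysosomal genes, taken from a list of hydrolases, their cofactors and lysosomal membrane proteins. Only probe sets annotated to exactly 1 gene symbol entered, and each gene was represented by its brightest probe set, judged by the mean of the 8 arrays. All 44 genes were measured, out of 18193 genes on the array, and all 44 had a mean above the background level of 6.98 log2 units, which is the 95th percentile of the means of 114 genes for keratin-associated proteins and for olfactory, taste and vomeronasal receptors. By substrate they fall into 11 proteases, 11 glycosidases, 5 sulfatases, 8 lipid enzymes and cofactors, 7 membrane proteins and 2 other luminal proteins. RNA came from blood monocytes of male C57BL/6 mice that had received fluorescent latex beads of 1 µm intravenously, sorted 4 days later. The 4 groups were Gr1hi (classical, Ly-6C hi) and Gr1lo (nonclassical, Ly-6C lo) monocytes, each sorted as cells that carried beads and as cells that did not, with 2 arrays per group. Bead-free cells therefore came from a sort that split cells by whether they held beads, and no mice without beads were analysed here. Accounts of clodronate liposomes, given to remove phagocytes, conflict: one has them precede the beads by 3 days with no subset set apart, the other has them given to label Gr1hi but not Gr1lo cells. Under the second account subset and pretreatment cannot be told apart. The labels call the arrays of a group biological replicates, and the number of mice and cells behind each array is not given in the sources used here.

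Lysosomes are acidic organelles in which hydrolases break down material that arrives by phagocytosis, endocytosis and autophagy. Proteases open and trim proteins, glycosidases and sulfatases take glycans and glycosaminoglycans apart from one end, and lipid enzymes work with small cofactor proteins that lift lipids out of membranes. Membrane proteins line the organelle, move its products out and control its ion content. Monocytes are phagocytes, and loss of many of these genes causes lysosomal storage diseases. Transcription factors of the MiT/TFE family, of which TFEB is the best known, bind an E-box extended to the CLEAR element in the promoters of many lysosomal genes.

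The promoters of 5 genes are shown because each holds the extended E-box TCACGTGA in the 250 bases before its start, while their RNA differed between the subsets for 3 of them (Ctsd, Gla and Dpp7) and passed no test for the other 2 (Cln3 and Mcoln1). The promoter of Lgmn is added because this gene rose with beads over both subsets and holds the shorter E-box CACGTG. Acp2, which rose as well, holds no CACGTG in the same stretch. The sequences are from RefSeq on GRCm38.p6, run 5′ to 3′ on the strand of the gene, and carry in capitals the match to TCACGTGA, or to CACGTG in Lgmn. Gla holds 2 such matches.
Ctsd, chr7:142387828-142388077, minus strand: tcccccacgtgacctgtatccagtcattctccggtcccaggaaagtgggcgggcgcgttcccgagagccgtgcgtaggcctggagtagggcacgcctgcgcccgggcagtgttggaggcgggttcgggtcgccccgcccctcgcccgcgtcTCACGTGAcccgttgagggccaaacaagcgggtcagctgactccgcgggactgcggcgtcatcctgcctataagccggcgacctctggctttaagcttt
Gla, chrX:134601006-134601255, minus strand: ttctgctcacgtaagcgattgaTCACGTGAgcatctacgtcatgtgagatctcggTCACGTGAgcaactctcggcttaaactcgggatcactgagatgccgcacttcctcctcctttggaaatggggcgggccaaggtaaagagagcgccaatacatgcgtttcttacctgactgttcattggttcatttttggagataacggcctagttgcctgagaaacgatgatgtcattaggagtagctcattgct
Dpp7, chr2:25356333-25356582, minus strand: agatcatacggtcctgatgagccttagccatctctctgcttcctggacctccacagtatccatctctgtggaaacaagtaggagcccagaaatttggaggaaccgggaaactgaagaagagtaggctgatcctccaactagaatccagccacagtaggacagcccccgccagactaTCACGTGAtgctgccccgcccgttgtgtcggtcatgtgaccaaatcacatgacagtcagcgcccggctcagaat
Cln3, chr7:126583237-126583486, minus strand: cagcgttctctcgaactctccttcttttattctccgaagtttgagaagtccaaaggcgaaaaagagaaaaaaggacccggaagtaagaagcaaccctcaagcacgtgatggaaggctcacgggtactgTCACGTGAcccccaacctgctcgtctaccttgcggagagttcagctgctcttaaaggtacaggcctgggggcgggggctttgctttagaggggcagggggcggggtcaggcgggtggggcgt
Mcoln1, chr8:3500269-3500518, plus strand: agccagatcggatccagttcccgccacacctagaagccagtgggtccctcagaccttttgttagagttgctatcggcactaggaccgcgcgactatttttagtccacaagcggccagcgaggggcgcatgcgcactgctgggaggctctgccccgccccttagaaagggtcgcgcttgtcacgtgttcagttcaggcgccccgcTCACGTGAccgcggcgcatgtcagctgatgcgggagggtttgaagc
Lgmn, chr12:102439093-102439342, minus strand: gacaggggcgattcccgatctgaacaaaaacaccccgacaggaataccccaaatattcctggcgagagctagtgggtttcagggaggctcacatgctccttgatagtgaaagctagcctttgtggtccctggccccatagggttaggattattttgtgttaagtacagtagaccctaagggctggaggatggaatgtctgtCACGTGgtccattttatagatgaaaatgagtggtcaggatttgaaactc

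Deposited log2 values had array medians between 6.12 and 6.19. Across probe sets, correlations were 0.9935 to 0.9963 within groups and 0.9714 to 0.9776 between subsets. The classical marker list (Vcan, F13a1, Chil3 and Ccr2 measured, of 6 listed) averaged 12.63 to 13.003 log2 units on the Gr1hi arrays, 10.90 and 10.57 in Gr1lo cells without beads and 8.77 and 8.62 in Gr1lo cells with beads, and the 6 nonclassical markers averaged 9.52 to 9.72 in Gr1hi and 12.19 to 12.40 in Gr1lo cells. The neutrophil list (8 of 10 genes measured) averaged 8.47 to 9.47 in Gr1hi and 6.45 to 6.74 in Gr1lo cells. Array 1 of Gr1lo cells without beads stood apart from array 2: the list of 11 tissue macrophage markers averaged 8.80 against 7.13, with C1qa at 11.37 against 8.16. The Gr1lo arrays with beads lay between, at 8.16 and 7.94 for the list and 10.66 and 10.13 for C1qa. Cd163 read 7.25 on array 1, 4.61 on array 2 and 3.65 and 3.89 with beads. Cd163, Timd4 and Vsig4 were above background on array 1 of the bead-free Gr1lo cells alone. Of the lysosomal genes, 35 of 44 were higher on array 1 than on array 2 of bead-free Gr1lo cells (58.1% of genes above background). So were 34 on array 1 of Gr1lo cells with beads (58.2%) and 30 on array 1 of Gr1hi cells without beads (58.1%). In Gr1hi cells with beads 20 of 44 were higher on array 1 (53.3%). The order is thus not particular to bead-free Gr1lo cells, though it is absent in Gr1hi cells with beads. The widest gap is larger in bead-free Gr1lo cells. Array 1 exceeded array 2 by up to 0.645 log2 units (median 0.115) there, against 0.29 (median 0.08) in Gr1lo cells with beads and 0.315 (median 0.07) in bead-free Gr1hi cells. Poly-A spike controls, averaged over 24 probe sets, read 7.75 and 8.11 on the bead-free and 9.45 and 9.86 on the bead arrays of Gr1hi cells, against 9.27 and 8.68 and then 10.44 and 10.45 for Gr1lo cells. Hybridization controls read 11.85 and 12.18 on the bead arrays of Gr1lo cells and 10.78 to 11.33 elsewhere, and 18S RNA read 8.58 on array 1 of bead-free Gr1lo cells and 9.58 to 10.64 elsewhere. These values move with bead state, subset or that array, and their part in the results was not tested.

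Lysosomal genes were more often lower than higher in Gr1lo cells. Without beads 19 of 44 were lower and 5 higher in Gr1lo than in Gr1hi cells, and with beads 24 were lower and 5 higher, by limma with Benjamini-Hochberg adjustment over 18193 genes at an adjusted p under 0.05. Gla, Npc1, Galns, Ctsl and Ctsd were more than 2-fold lower in both states, whereas Gm2a, Ids and Laptm5 were higher in both. In bulk RNA, fewer cells of a type and less RNA per cell cannot be told apart, and the arrays measure RNA, not protein or enzyme activity. Many genes differ between the subsets: without beads 23.6% of all genes were called, 13.6% lower and 10% higher, and with beads 26.5%, 14.6% lower and 11.8% higher. Among the 8788 genes above background, to which all 44 genes belong, 20.9% were lower and 18.2% higher without beads, and 24.3% lower and 20.5% higher with beads. The median log2 difference of the 44 genes was -0.27 without beads and -0.28 with beads, beside -0.08 and -0.03 over all genes. Both comparisons were fitted with 1 spread per gene shared by all 8 arrays.

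**Figure D1:**
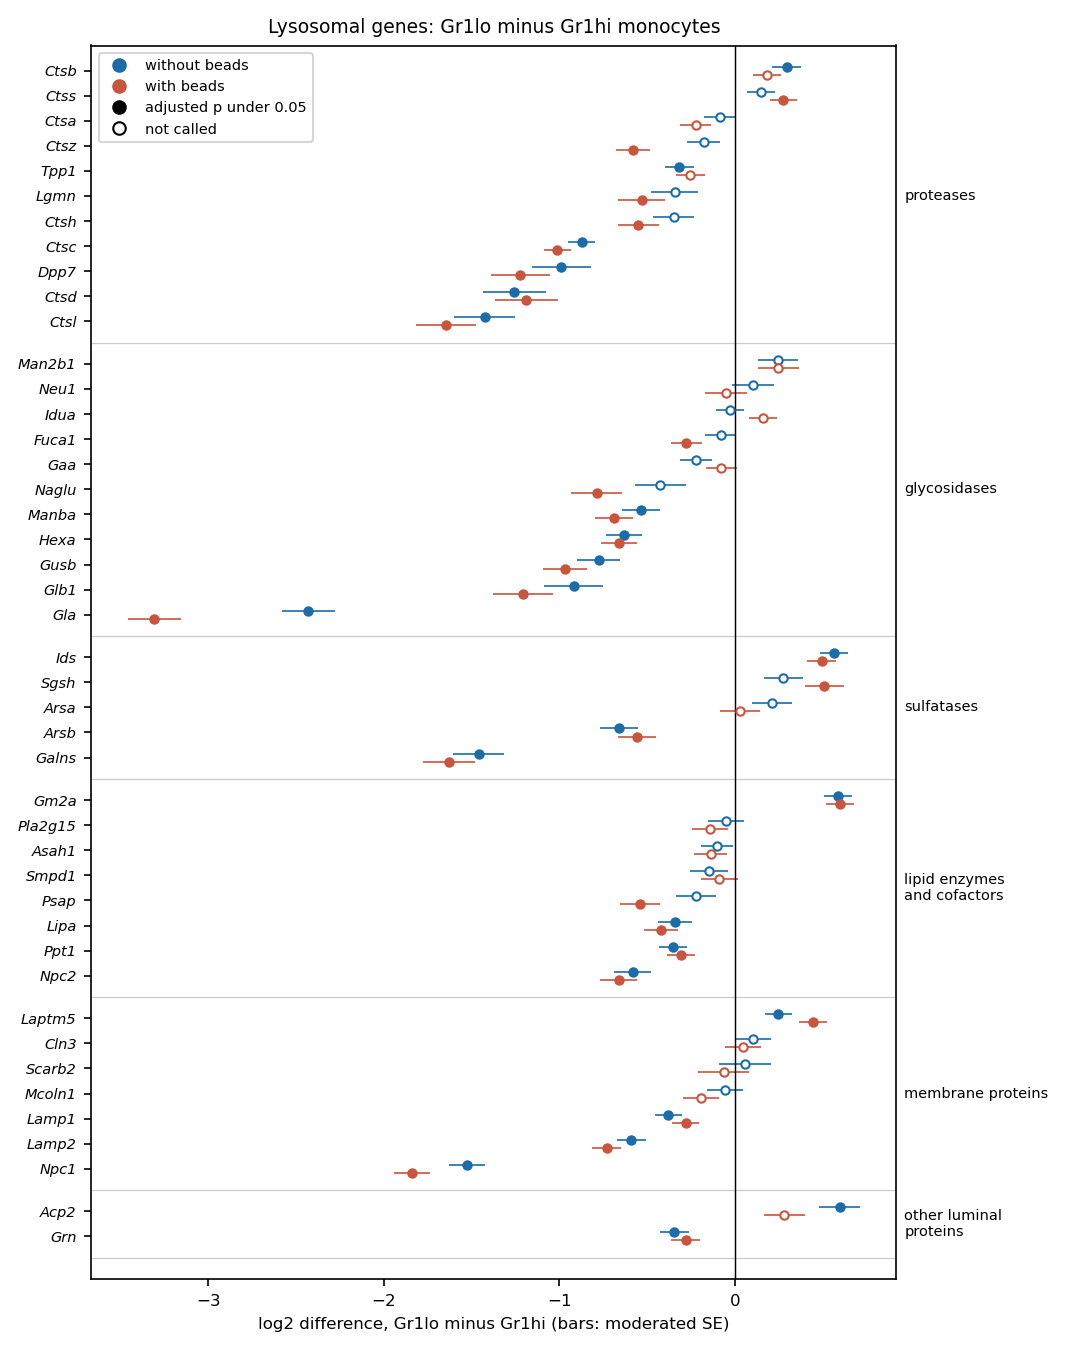
Log2 difference between Gr1lo and Gr1hi monocytes for each of the 44 lysosomal genes, grouped by substrate, without beads (blue) and with beads (red). Points left of 0 are lower in Gr1lo cells, bars are moderated standard errors, and filled points passed an adjusted p under 0.05. Gla lies farthest left at -2.43 and -3.31, and 18 genes are filled on the left in both states.

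The calls in both bead states overlapped largely. Lower in both were 18 genes, namely Ctsc, Ctsd, Ctsl, Dpp7, Hexa, Glb1, Gusb, Gla, Manba, Galns, Arsb, Lipa, Npc2, Ppt1, Lamp1, Lamp2, Npc1 and Grn, and higher in both were 3. Tpp1 was called lower without beads alone, and Ctsh, Ctsz, Lgmn, Naglu, Fuca1 and Psap with beads alone. Ctsb and Acp2 were called higher without beads alone, Ctss and Sgsh with beads alone. No gene was called in opposite directions, and a call in 1 state alone does not show a different effect, since the test of that difference called 0 of the 44 genes (0.044% of all genes). The genes that passed in neither state were 12, namely Ctsa, Gaa, Idua, Man2b1, Neu1, Arsa, Asah1, Smpd1, Pla2g15, Scarb2, Cln3 and Mcoln1. By array order, all 4 Gr1lo arrays lay below all 4 Gr1hi arrays for 23 of the 44 genes (28.7% of genes above background) and above them for 5 (24.6%).

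**Figure D2:**
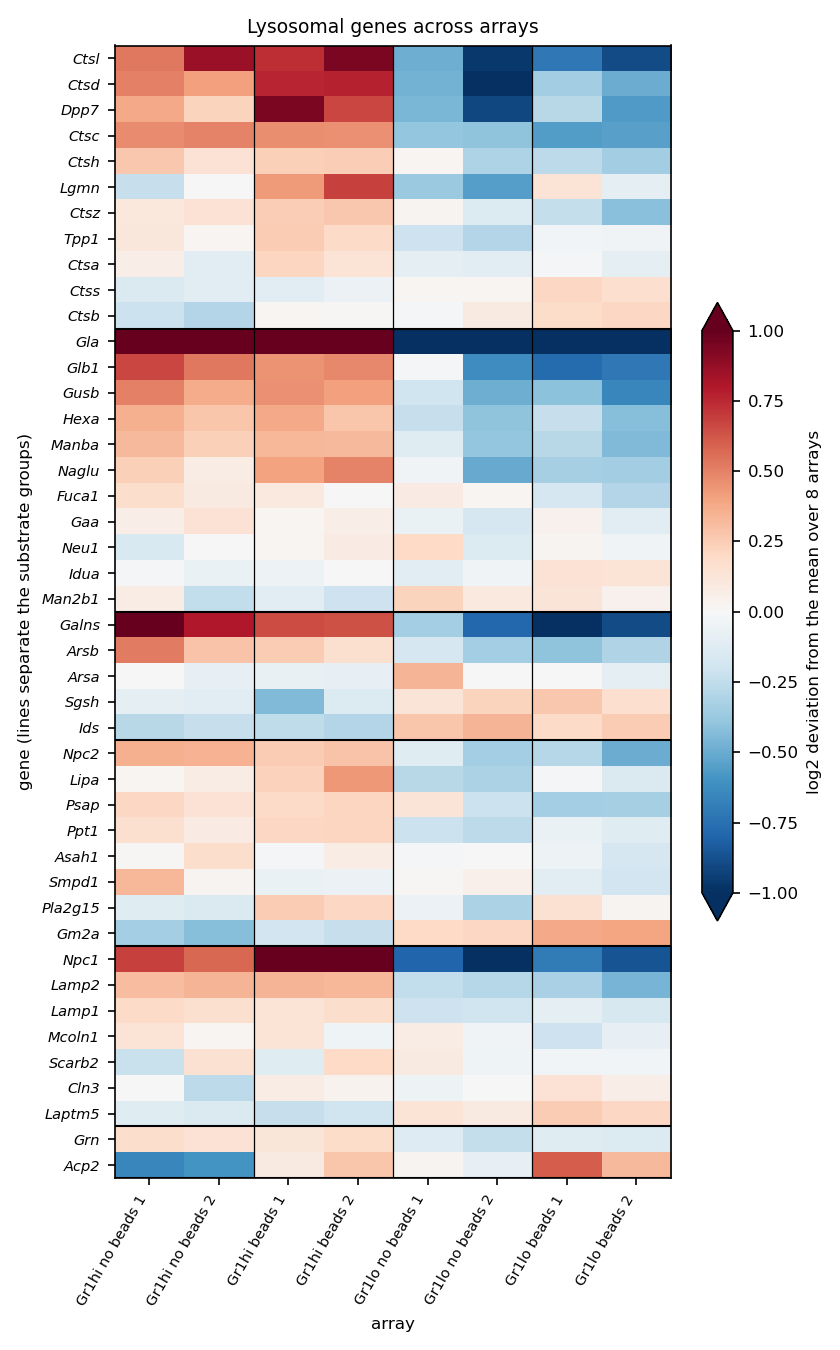
Log2 deviation of each lysosomal gene (rows) from its own mean over 8 arrays, on each array (columns), with the colour scale ending at -1 and 1. Black lines separate the substrate groups and the 4 groups of arrays. Gr1hi columns are mostly red and Gr1lo columns mostly blue, with the reverse for Gm2a, Ids and Laptm5.

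Of the 11 proteases, 5 were lower and 1 higher in Gr1lo cells without beads, and 7 were lower and 1 higher with beads. Ctsl, a cysteine endoprotease, had log2 levels of 10.88 and 11.21 in Gr1hi cells without beads, 11.09 and 11.29 in Gr1hi cells with beads, 9.86 and 9.38 in Gr1lo cells without beads and 9.63 and 9.46 in Gr1lo cells with beads. Ctsd, the main aspartic endoprotease, had log2 levels of 12.66 and 12.57 without and 12.92 and 12.92 with beads in Gr1hi cells, and 11.68 and 11.04 without and 11.81 and 11.66 with beads in Gr1lo cells. For both genes the groups did not overlap, although array 1 of the bead-free Gr1lo cells lay 0.65 above array 2 for Ctsd, the gene's widest gap within a group. The log2 difference of Ctsl by limma was -1.43 ± 0.17 (adjusted p 0.00063) without beads and -1.65 ± 0.17 (adjusted p 0.000217) with beads, where ± is the moderated standard error. Ctsd differed by -1.26 ± 0.18 (adjusted p 0.00141) and -1.19 ± 0.18 (adjusted p 0.00147). With the mean of all its probe sets Ctsl differed by -0.75 and -0.70, still called but under 2-fold, and Ctsd without beads differed by -0.93 without array 2 and -1.58 without array 1 of the bead-free Gr1lo cells, called in both.

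Several exopeptidases were lower as well. Ctsc, the dipeptidyl peptidase that activates granule serine proteases, had tight log2 levels of 13.75 and 13.77 in Gr1hi cells without beads, 13.74 and 13.73 in Gr1hi cells with beads, 12.89 and 12.88 in Gr1lo cells without beads and 12.72 and 12.73 in Gr1lo cells with beads. Its 2 arrays agreed within 0.03 in every group, and the limma difference was -0.87 ± 0.08 (adjusted p 0.000123) without and -1.01 ± 0.08 (adjusted p 4.1e-05) with beads. The 2 further Ctsc probe sets above background differed by -0.84 and -0.90 without, but by -0.16 and -0.55 with beads. With the mean of all its probe sets the difference with beads was -0.57 (adjusted p 0.0173 by limma), still called but under 2-fold. In Gr1hi cells these further probe sets each differed by -0.64 with beads, against -0.02 for the brightest. Dpp7, a dipeptidyl peptidase that cuts after proline, had log2 levels of 8.48 and 8.32 without and 9.04 and 8.77 with beads in Gr1hi cells, and 7.64 and 7.19 without and 7.83 and 7.54 with beads in Gr1lo cells, and differed by -0.99 ± 0.17 (adjusted p 0.00347) and -1.22 ± 0.17 (adjusted p 0.000927) in limma. Tpp1, which takes tripeptides off protein ends, had log2 levels of 10.74 and 10.64 without and 10.88 and 10.82 with beads in Gr1hi cells, and 10.42 and 10.33 without and 10.60 and 10.59 with beads in Gr1lo cells. Its Gr1lo arrays all lay below its Gr1hi arrays, and the difference passed without beads at -0.32 ± 0.08 (adjusted p 0.0247) and missed the threshold with beads at -0.25 ± 0.08 (adjusted p 0.0548) by limma.

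Cathepsins H and Z and legumain passed with beads. The aminopeptidase Ctsh had log2 levels of 12.50 and 12.38 without and 12.47 and 12.48 with beads in Gr1hi cells, and 12.26 and 11.93 without and 11.97 and 11.89 with beads in Gr1lo cells, the carboxypeptidase Ctsz had 13.24 and 13.28 without and 13.38 and 13.41 with beads in Gr1hi cells, and 13.16 and 13.003 without and 12.90 and 12.72 with beads in Gr1lo cells. In both, every Gr1lo array was below every Gr1hi array, but bead-free array 1 came close to the Gr1hi range. The limma differences with beads were -0.55 ± 0.12 (adjusted p 0.00829) for Ctsh and -0.58 ± 0.10 (adjusted p 0.00236) for Ctsz. Lgmn, the asparaginyl endopeptidase that processes other cathepsins, had log2 levels of 11.34 and 11.58 in Gr1hi cells without beads, 12.003 and 12.26 in Gr1hi cells with beads, 11.21 and 11.03 in Gr1lo cells without beads and 11.72 and 11.49 in Gr1lo cells with beads. Its bead-carrying Gr1lo arrays overlapped the bead-free Gr1hi arrays, and the matched differences were -0.34 ± 0.13 (adjusted p 0.104) without and -0.53 ± 0.13 (adjusted p 0.0186) with beads in limma.

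Ctsb and Ctss went the other way. Ctsb, which acts as an endoprotease and a carboxypeptidase, had log2 levels of 13.65 and 13.57 in Gr1hi cells without beads, 13.88 and 13.87 in Gr1hi cells with beads, 13.85 and 13.95 in Gr1lo cells without beads and 14.05 and 14.07 in Gr1lo cells with beads, a limma difference of 0.30 ± 0.08 (adjusted p 0.0317) without beads and 0.18 ± 0.08 (adjusted p 0.148) with beads. This brightest probe set of Ctsb gave the smallest difference of its 5 above background. They ranged from 0.296 to 0.867 without and from 0.183 to 0.982 with beads. With the mean of all its probe sets Ctsb was called higher with beads too, at 0.457 (adjusted p 0.00154 by limma). Ctss, the protease of invariant chain processing for MHC class II, had log2 levels of 13.91 and 13.94 without and 13.94 and 13.99 with beads in Gr1hi cells, and 14.07 and 14.07 without and 14.26 and 14.22 with beads in Gr1lo cells. All Gr1lo arrays of Ctss were above all Gr1hi arrays, and its limma difference was 0.15 ± 0.08 (adjusted p 0.213) without and 0.28 ± 0.08 (adjusted p 0.0296) with beads. Ctsa, a carboxypeptidase that also stabilises Glb1 and Neu1, differed by -0.09 and -0.22 log2 units, neither of which passed.

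Of the 11 glycosidases, 5 were lower in Gr1lo cells without beads and 7 with beads. On the brightest probe sets 0 were higher by limma in either state, also at an unadjusted p under 0.05. Gla, alpha-galactosidase A, which removes galactose from globotriaosylceramide, had the largest difference of the 44 genes. Its log2 levels were 8.65 and 8.76 in Gr1hi cells without beads, 9.27 and 9.41 in Gr1hi cells with beads, 6.48 and 6.07 in Gr1lo cells without beads and 5.89 and 6.18 in Gr1lo cells with beads. The Gr1lo levels lie below background, so the limma differences of -2.43 ± 0.15 (adjusted p 1.84e-05) and -3.31 ± 0.15 (adjusted p 3.57e-06) rest on 1 measured side. Against the background level, Gla was at least 3.31-fold lower without beads and at least 5.15-fold lower with beads. Its other probe sets, 2 in number, had means of 5.11 and 3.40 log2 units and were not above background, and with the mean of all its probe sets the limma differences were -0.95 and -1.36, still called.

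Enzymes that trim galactose, glucuronic acid and hexosamine from glycans were lower in both states. Glb1, beta-galactosidase, had log2 levels of 9.29 and 9.14 in Gr1hi cells without beads, 9.07 and 9.10 in Gr1hi cells with beads, 8.60 and 7.99 in Gr1lo cells without beads and 7.85 and 7.91 in Gr1lo cells with beads. Gusb, beta-glucuronidase, had log2 levels of 11.18 and 11.04 without and 11.14 and 11.08 with beads in Gr1hi cells, and 10.48 and 10.19 without and 10.26 and 10.02 with beads in Gr1lo cells. The Gr1lo arrays of both were below every Gr1hi array, and array 1 of the bead-free Gr1lo cells was the highest Gr1lo array for both. In limma Glb1 differed by -0.92 ± 0.17 (adjusted p 0.00504) without and -1.21 ± 0.17 (adjusted p 0.000999) with beads, and Gusb by -0.78 ± 0.12 (adjusted p 0.00251) and -0.97 ± 0.12 (adjusted p 0.000622). Hexa, the alpha subunit of beta-hexosaminidase, had log2 levels of 12.92 and 12.85 without and 12.95 and 12.85 with beads in Gr1hi cells, and 12.34 and 12.17 without and 12.34 and 12.14 with beads in Gr1lo cells, with limma differences of -0.63 ± 0.10 (adjusted p 0.00278) and -0.66 ± 0.10 (adjusted p 0.00178). Manba, beta-mannosidase, had log2 levels of 9.82 and 9.74 without and 9.83 and 9.82 with beads in Gr1hi cells, and 9.38 and 9.11 without and 9.22 and 9.05 with beads in Gr1lo cells, with limma differences of -0.53 ± 0.11 (adjusted p 0.00847) and -0.69 ± 0.11 (adjusted p 0.00195).

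Naglu, which removes N-acetylglucosamine from heparan sulfate, had log2 levels of 7.69 and 7.54 in Gr1hi cells without beads, 7.86 and 7.95 in Gr1hi cells with beads, 7.42 and 6.95 in Gr1lo cells without beads and 7.13 and 7.11 in Gr1lo cells with beads. The bead-free Gr1lo arrays differed from each other by more than array 1 did from Gr1hi array 2, and limma gave -0.43 ± 0.15 (adjusted p 0.0666) without and -0.79 ± 0.15 (adjusted p 0.00406) with beads. Fuca1, alpha-fucosidase, had log2 levels of 10.75 and 10.67 without and 10.67 and 10.58 with beads in Gr1hi cells, and 10.66 and 10.60 without and 10.41 and 10.29 with beads in Gr1lo cells, and its limma difference with beads, -0.28 ± 0.09 (adjusted p 0.0499), sat at the threshold. The 2 further Fuca1 probe sets above background differed by 0.04 and 0.02 in the same comparison, so the direction of this gene is not shared by its probe sets. The alpha-glucosidase Gaa (glycogen), Idua (iduronic acid), Neu1 (sialic acid) and Man2b1 (alpha-mannose) did not pass, with differences from -0.22 (Gaa) to 0.25 (Man2b1) without beads. The other Man2b1 probe set above background was higher in Gr1lo cells, by 0.567 without and 0.455 with beads. With the mean of its probe sets Man2b1 was called higher in both states by limma (adjusted p 0.015 and 0.0249).

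**Figure D3:**
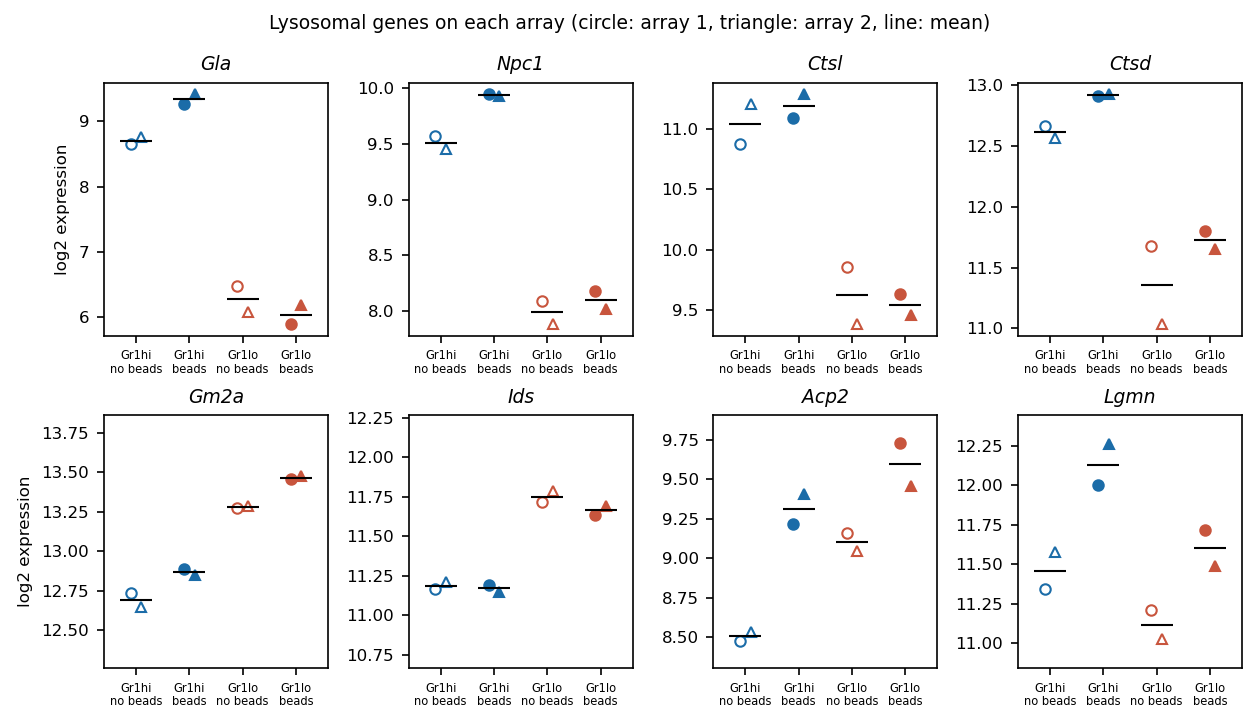
Log2 expression (y axis) of 8 lysosomal genes on every array, by group (x axis), with array 1 as circles, array 2 as triangles, open symbols for cells without beads, filled symbols for cells with beads and a line at the mean of each group. Each panel has its own range of log2 units. Gla, Npc1, Ctsl and Ctsd are lower on every Gr1lo array (red) than on every Gr1hi array (blue), Gm2a and Ids are higher, and in Acp2 and Lgmn both bead groups lie above their bead-free groups.

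The 5 sulfatases split. Galns and Arsb, which take sulfate off keratan and chondroitin sulfate and off dermatan sulfate, were lower in both states, and Ids, which acts on the iduronate of heparan and dermatan sulfate, was higher in both. Galns had log2 levels of 9.39 and 9.20 in Gr1hi cells without beads, 9.05 and 9.03 in Gr1hi cells with beads, 8.05 and 7.61 in Gr1lo cells without beads and 7.32 and 7.50 in Gr1lo cells with beads. All Gr1lo arrays were more than 0.9 below the lowest Gr1hi array, and the limma difference was -1.46 ± 0.15 (adjusted p 0.000241) without and -1.63 ± 0.15 (adjusted p 0.000103) with beads. Under the mean of all its probe sets it was -0.81 and -0.73, again called. Arsb had log2 levels of 9.11 and 8.87 without and 8.84 and 8.75 with beads in Gr1hi cells, and 8.41 and 8.24 without and 8.18 and 8.29 with beads in Gr1lo cells, with limma differences of -0.66 ± 0.11 (adjusted p 0.00298) and -0.56 ± 0.11 (adjusted p 0.00561).

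Ids had log2 levels of 11.16 and 11.21 in Gr1hi cells without beads, 11.19 and 11.15 in Gr1hi cells with beads, 11.72 and 11.79 in Gr1lo cells without beads and 11.64 and 11.70 in Gr1lo cells with beads. Each Gr1lo array was above each Gr1hi array, and limma gave 0.56 ± 0.08 (adjusted p 0.0014) without and 0.49 ± 0.08 (adjusted p 0.00214) with beads. Sgsh, the N-sulfatase of heparan sulfate, had log2 levels of 8.02 and 7.999 without and 7.67 and 7.98 with beads in Gr1hi cells, and 8.24 and 8.34 without and 8.39 and 8.28 with beads in Gr1lo cells, again without overlap. It passed with beads at 0.51 ± 0.11 (adjusted p 0.00972) but not without at 0.28 ± 0.11 (adjusted p 0.116) in limma. Arsa, the sulfatase of sulfatide, differed by 0.21 and 0.03 and did not pass.

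Among the 8 lipid enzymes and cofactors, 3 were lower and 1 higher without beads and 4 were lower and 1 higher with beads. Npc2, the luminal cholesterol carrier, had log2 levels of 14.15 and 14.14 in Gr1hi cells without beads, 14.05 and 14.07 in Gr1hi cells with beads, 13.67 and 13.46 in Gr1lo cells without beads and 13.50 and 13.29 in Gr1lo cells with beads. Lipa, the acid lipase that frees cholesterol and fatty acids from lipoprotein lipid, had log2 levels of 10.76 and 10.82 without and 10.98 and 11.18 with beads in Gr1hi cells, and 10.47 and 10.43 without and 10.72 and 10.60 with beads in Gr1lo cells. Both were lower on every Gr1lo array, at -0.58 ± 0.11 (adjusted p 0.00474) and -0.66 ± 0.11 (adjusted p 0.00198) for Npc2 and at -0.34 ± 0.10 (adjusted p 0.0336) and -0.42 ± 0.10 (adjusted p 0.0122) for Lipa in limma. Ppt1, which removes palmitate from proteins, had log2 levels of 10.79 and 10.71 without and 10.84 and 10.85 with beads in Gr1hi cells, and 10.42 and 10.37 without and 10.56 and 10.51 with beads in Gr1lo cells, with limma differences of -0.35 ± 0.08 (adjusted p 0.0134) and -0.31 ± 0.08 (adjusted p 0.021).

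Cofactors differed in direction. Gm2a, the activator that presents ganglioside to beta-hexosaminidase, had log2 levels of 12.74 and 12.65 in Gr1hi cells without beads, 12.89 and 12.85 in Gr1hi cells with beads, 13.28 and 13.29 in Gr1lo cells without beads and 13.46 and 13.47 in Gr1lo cells with beads. Its arrays agreed within 0.09 in each group, and it was higher in Gr1lo cells by 0.59 ± 0.08 (adjusted p 0.0011) and 0.60 ± 0.08 (adjusted p 0.000743) in limma, opposite in sign to Hexa, whose enzyme it serves. Psap, the precursor of the saposins, had log2 levels of 13.97 and 13.90 without and 13.95 and 13.97 with beads in Gr1hi cells, and 13.88 and 13.54 without and 13.42 and 13.42 with beads in Gr1lo cells, lower with beads at -0.54 ± 0.11 (adjusted p 0.00808) and not called without at -0.22 ± 0.11 (adjusted p 0.213) in limma. Asah1 (acid ceramidase), Smpd1 (acid sphingomyelinase) and Pla2g15 (a lysosomal phospholipase) did not pass, with differences between -0.15 and -0.05 without beads and between -0.14 and -0.09 with beads. The other Pla2g15 probe set above background differed by 0.55 without and 0.35 with beads, so its probe sets do not share the sign.

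Of 7 membrane proteins, 3 were lower and 1 higher in each state. Npc1, the membrane protein that receives cholesterol from Npc2, had log2 levels of 9.57 and 9.46 in Gr1hi cells without beads, 9.95 and 9.93 in Gr1hi cells with beads, 8.09 and 7.88 in Gr1lo cells without beads and 8.18 and 8.02 in Gr1lo cells with beads. The lowest Gr1hi array stood well above the highest Gr1lo array, and limma gave -1.53 ± 0.10 (adjusted p 3.12e-05) without and -1.84 ± 0.10 (adjusted p 9.6e-06) with beads, which are 2.88-fold and 3.57-fold. The glycoproteins Lamp1 and Lamp2, which cover the inner face of the membrane, showed smaller differences. Lamp1 had log2 levels of 13.50 and 13.46 without and 13.44 and 13.48 with beads in Gr1hi cells, and 13.10 and 13.10 without and 13.22 and 13.14 with beads in Gr1lo cells, and Lamp2 had 13.12 and 13.15 without and 13.15 and 13.14 with beads in Gr1hi cells, and 12.57 and 12.52 without and 12.48 and 12.35 with beads in Gr1lo cells. Neither gene overlapped between subsets, with limma differences of -0.38 ± 0.08 (adjusted p 0.00912) and -0.28 ± 0.08 (adjusted p 0.0296) for Lamp1 and -0.59 ± 0.08 (adjusted p 0.00138) and -0.73 ± 0.08 (adjusted p 0.00034) for Lamp2.

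Laptm5, a transmembrane protein of blood cell lysosomes, had log2 levels of 13.64 and 13.62 in Gr1hi cells without beads, 13.54 and 13.57 in Gr1hi cells with beads, 13.90 and 13.86 in Gr1lo cells without beads and 14.02 and 13.98 in Gr1lo cells with beads. All Gr1lo arrays were above all Gr1hi arrays, and limma gave 0.25 ± 0.08 (adjusted p 0.0499) without and 0.45 ± 0.08 (adjusted p 0.00312) with beads. Scarb2 (the carrier of glucocerebrosidase), Cln3 and the calcium channel Mcoln1 did not pass in either state, with differences from -0.06 to 0.10 without beads and from -0.19 to 0.05 with beads.

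The remaining luminal proteins were Grn and Acp2. Grn, progranulin, which is cut into granulins in the lysosome, had log2 levels of 14.27 and 14.23 in Gr1hi cells without beads, 14.21 and 14.27 in Gr1hi cells with beads, 13.96 and 13.85 in Gr1lo cells without beads and 13.97 and 13.95 in Gr1lo cells with beads, lower, at -0.35 ± 0.08 (adjusted p 0.0164) and -0.28 ± 0.08 (adjusted p 0.0353) in limma. Its probe sets agreed in sign but not in size: the other 2 differed by -0.57 and -1.27 without beads and by -0.56 and -1.30 with beads. Acp2, an acid phosphatase, had log2 levels of 8.48 and 8.54 in Gr1hi cells without beads, 9.22 and 9.41 in Gr1hi cells with beads, 9.16 and 9.05 in Gr1lo cells without beads and 9.73 and 9.46 in Gr1lo cells with beads, higher in Gr1lo cells without beads by 0.60 ± 0.12 (adjusted p 0.00622) and not called with beads at 0.28 ± 0.12 (adjusted p 0.112) in limma. Over all groups, 25 genes had more than 1 probe set above background. Of these, 14 were called without beads, and all probe sets shared the sign in 14, and 15 were called with beads, and all shared it in 14, with Fuca1 as the exception.

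Array 1 of the bead-free Gr1lo cells, with its macrophage markers, was followed by comparing fits without it and without array 2. Without that array the median of the 44 genes was -0.36 and 33 were negative, and without array 2 of the group it was -0.18 and 31 were negative. The neutrophil and classical marker lists also differ between the subsets, as given above, and their part in these differences was not tested.

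Few lysosomal genes passed the test for beads, which did not pair same-numbered arrays within a subset. In Gr1hi cells 1 of 44 genes was called, Acp2, which rose (0.247% of all genes were called and 0.148% rose). In Gr1lo cells 0 of 44 were called by limma (0.225% of all genes). At an unadjusted p under 0.05 were 11 in Gr1lo and 8 in Gr1hi cells, beside 2402 and 1806 of all 18193 genes. Averaged over both subsets 2 genes were called, Acp2 and Lgmn, and both rose (0.764% of all genes were called and 0.275% rose). The median log2 difference of the 44 genes was 0.03 in Gr1hi and -0.04 in Gr1lo cells, with 26 positive in Gr1hi and 20 in Gr1lo. Among the 8788 genes above background the medians were -0.04 and -0.03, with 3421 positive in Gr1hi and 3634 in Gr1lo. Signs matched in 28 of the 44 genes, 15 positive and 13 negative in both subsets, and the rest were 11 positive in Gr1hi alone and 5 in Gr1lo alone.

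**Figure D4:**
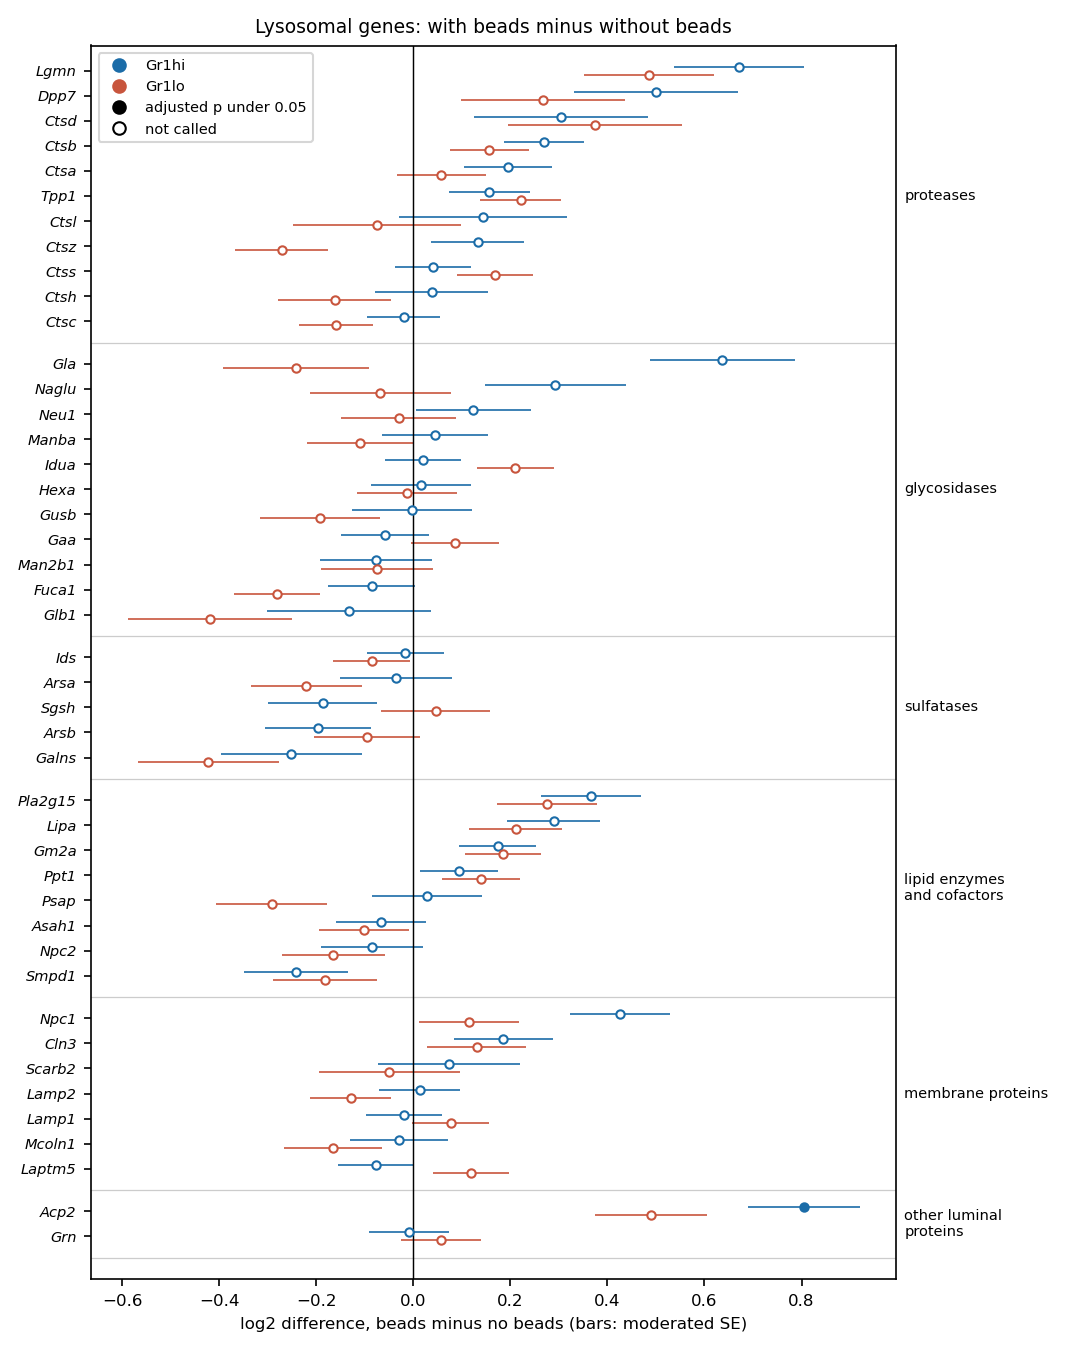
Log2 difference between cells with and without beads for each of the 44 lysosomal genes, grouped by substrate, in Gr1hi (blue) and Gr1lo (red) monocytes. Bars are moderated standard errors and filled points passed an adjusted p under 0.05. The single filled point is Acp2 in Gr1hi cells at 0.81, and Lgmn is positive in both subsets.

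Acp2 is a membrane-anchored acid phosphatase that is released into the lumen. Its log2 levels were 8.48 and 8.54 without beads and 9.22 and 9.41 with beads in Gr1hi cells, and 9.16 and 9.05 against 9.73 and 9.46 in Gr1lo cells. Bead arrays were above bead-free arrays in both subsets. The limma difference was 0.81 ± 0.12 (adjusted p 0.0405) in Gr1hi cells, 1.75-fold, 0.49 ± 0.12 (adjusted p 0.166) in Gr1lo cells and 0.65 ± 0.08 (adjusted p 0.0162) averaged over both. All 3 of its probe sets were positive in both subsets, from 0.67 to 0.81 in Gr1hi and from 0.41 to 0.67 in Gr1lo cells. The Gr1hi call was lost under 8 of 17 other settings, among them the mean of all probe sets (0.75, adjusted p 0.0601 by limma) and each fit that left out an array of the Gr1hi groups or of Gr1lo cells with beads, and its adjusted p ranged from 0.00831 to 0.333.

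Lgmn rose by 0.58 ± 0.09 (adjusted p 0.0407) averaged over both subsets in limma. Its bead arrays lay above its bead-free arrays in both, with log2 levels of 12.003 and 12.26 against 11.34 and 11.58 in Gr1hi and 11.72 and 11.49 against 11.21 and 11.03 in Gr1lo cells. Neither subset passed alone in limma, at 0.67 ± 0.13 (adjusted p 0.124) in Gr1hi and 0.49 ± 0.13 (adjusted p 0.223) in Gr1lo cells, although Gr1hi cells passed with trended robust variances (adjusted p 0.044) and their adjusted p ranged from 0.0285 to 0.576 over 17 settings. The averaged call was lost under 8 of 16 other settings, each fit without an array other than bead-free Gr1lo array 2 among them, with adjusted p from 0.00979 to 0.15. The averaged call of Acp2 was lost under 3.

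In no other gene did the difference with beads pass in either subset, and further genes of each group are given by value. Among proteases, the log2 difference of Dpp7 was 0.50 ± 0.17 in Gr1hi cells and 0.27 ± 0.17 in Gr1lo cells, and that of Ctsd was 0.31 ± 0.18 and 0.37 ± 0.18. Ctsb differed by 0.27 ± 0.08 (adjusted p 0.322) in Gr1hi cells in limma, and 1 of its lower probe sets, tested on its own, by 0.65 ± 0.09 (adjusted p 0.0347 over all probe sets). Of the 11 proteases, 10 were positive in Gr1hi and 7 in Gr1lo cells, with a median of 0.16 in both.

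Among glycosidases, Gla differed by 0.64 ± 0.15 (adjusted p 0.196) in Gr1hi cells in limma, and both bead arrays lay above both bead-free arrays. In Gr1lo cells the gene was below background with and without beads. Glb1 differed by -0.42 ± 0.17 (adjusted p 0.354) and Fuca1 by -0.28 ± 0.09 (adjusted p 0.265) in Gr1lo cells in limma, and 9 of 11 glycosidases were negative there, against 5 in Gr1hi cells. All 5 sulfatases were negative in Gr1hi cells (5359 of 8788 genes above background) and 4 in Gr1lo cells (5149 of 8788), from -0.25 to -0.02 in Gr1hi cells. The lowest was Galns in both subsets, at -0.25 ± 0.15 (adjusted p 0.624) and -0.42 ± 0.15 (adjusted p 0.29) in limma, and the smallest p of the group in Gr1hi cells was that of Arsb, at -0.20 ± 0.11 (adjusted p 0.605).

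Among lipid enzymes, Pla2g15 had log2 levels of 9.19 and 9.16 in Gr1hi cells without beads, 9.57 and 9.52 in Gr1hi cells with beads, 9.26 and 8.998 in Gr1lo cells without beads and 9.46 and 9.34 in Gr1lo cells with beads. Its bead arrays lay above its bead-free arrays in both subsets, and limma gave 0.37 ± 0.10 (adjusted p 0.292) in Gr1hi, 0.28 ± 0.10 (adjusted p 0.319) in Gr1lo and 0.32 ± 0.07 (adjusted p 0.106) averaged. Lipa differed by 0.29 ± 0.10 and 0.21 ± 0.10 and Gm2a by 0.17 ± 0.08 and 0.19 ± 0.08, both positive in each subset. The other Gm2a probe set above background differed by -0.07 and -0.14, so its probe sets do not share the sign. Smpd1 was negative in both, at -0.24 and -0.18. Of the membrane proteins, Npc1 differed by 0.43 ± 0.10 (adjusted p 0.212) in Gr1hi cells in limma, and Mcoln1, with log2 levels of 8.05 and 7.93 without and 8.06 and 7.87 with beads in Gr1hi cells, and 7.99 and 7.88 without and 7.71 and 7.83 with beads in Gr1lo cells, had the smallest p in Gr1lo cells at -0.17 ± 0.10 (adjusted p 0.508).

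By array order, both bead arrays were above both bead-free arrays for 18 of 44 genes in Gr1hi cells (16.9% of genes above background) and below them for 8 (31.1%). In Gr1lo cells they were above for 14 (17%) and below for 12 (31.1%). The precision bounds what could be missed: the 95% confidence interval of the bead difference lay within 1 log2 unit of 0 for 43 of 44 genes in Gr1hi cells, all but Acp2, and for 44 in Gr1lo cells, and within 0.5 log2 units for 32 and 35. Macrophage markers read higher with beads in Gr1hi cells, where the list of 11 averaged 7.21 and 7.32 without and 7.70 and 7.81 with beads, led by C1qa at 7.24 and 7.36 against 8.66 and 8.65. Cd163, Timd4 and Vsig4 stayed below background on all 4 Gr1hi arrays. The neutrophil list averaged 9.47 and 9.15 without and 8.80 and 8.47 with beads there, and the part of either list in the bead differences was not tested.

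In Gr1lo cells the bead comparison depended on which bead-free array was kept. Without array 1, which carried the macrophage markers, 26 of 44 differences were positive and the median was 0.07. Without array 2, 20 were positive and the median was -0.10. Glb1 differed by -0.72 without array 2 and -0.12 without array 1, and Galns by -0.64 and -0.20. Markers of classical monocytes and of other cells also read lower with beads in Gr1lo cells. The classical list read lower as given above, with Vcan at 8.10 and 7.58 without and 4.85 and 4.89 with beads. The dendritic cell list (6 of 7 measured) averaged 6.85 and 6.83 without and 6.30 and 6.23 with beads, with Cd209a at 10.07 and 9.73 against 6.84 and 6.69, and the NK cell list (4 of 5 measured) averaged 6.71 and 6.70 against 6.04 and 6.15, with Klrd1 at 7.55 and 7.80 against 5.26 and 5.28. Of the other genes on these lists, Flt3 (dendritic) read 8.37 and 8.34 without and 7.87 and 7.73 with beads. Gzma (NK) read 7.48 and 7.18 against 7.36 and 7.31. Ncr1 and Prf1 of the NK list and Xcr1, Zbtb46, Siglech and Itgae of the dendritic list were below background on all 8 arrays. The part of these lists in the Gr1lo bead differences was not tested. The test of whether the bead difference differed between the subsets called 0 of 44 genes in limma, with 2 at an unadjusted p under 0.05 (1427 of 18193 over all genes). These were Gla, at -0.88 ± 0.21 with a 95% interval of -1.36 to -0.39 (adjusted p 0.487), and Ctsz at -0.40 ± 0.14 (adjusted p 0.591) in limma. The smallest p of the other groups belonged to Npc1 at -0.31, Psap at -0.32, Acp2 at -0.32 and Sgsh at 0.23. With array 2 of the bead-free Gr1lo cells left out, Gla passed at -1.08 (adjusted p 0.0469 by limma, up to 0.853 under the other settings), on levels that are below background in Gr1lo cells.

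A further 92 measured genes of the lysosome, of 103 listed, were counted in the same fit. Without beads 37 were lower and 13 higher in Gr1lo cells, and with beads 42 were lower and 13 higher, beside the shares of all genes above. Of 20 further enzymes, 7 were lower and 4 higher without beads, and 7 were lower and 3 higher with beads. Called lower in both states were Galc, Hgsnat, Scpep1, Arsg, Man2b2, Creg1 and Ifi30, higher in both states were Ctso, Acp5 and Plbd1, higher without beads alone was Ctsk. Of these, Arsg was below background in every group, so its call rests on unresolved levels, and Ctsk and Man2b2 were below background in at least 1 group. Acp5, the tartrate-resistant acid phosphatase, was higher by 1.98 ± 0.15 (adjusted p 6e-05) without and 1.95 ± 0.15 (adjusted p 4.97e-05) with beads in limma. Ifi30, the thiol reductase of antigen processing, was lower, at -0.91 ± 0.12 (adjusted p 0.00111) and -1.38 ± 0.12 (adjusted p 9.86e-05).

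Of 25 further membrane proteins, 9 were lower and 5 higher without beads and 10 lower and 5 higher with beads. Called lower in both states were Tmem192, Slc29a3, Atp13a2, Clcn7, Gpnmb, Tpcn1 and Sidt2, lower without beads alone were Cd164 and Slc15a3, lower with beads alone were Ctns, Slc17a5 and Litaf, higher in both states were Laptm4a, Slc38a9, Slc11a1, Tmem106b and Tpcn2. Of these, Ctns, Gpnmb and Tpcn2 were below background in at least 1 group. Slc11a1, the metal exporter of phagosomes, was higher in Gr1lo cells by 1.06 ± 0.08 (adjusted p 6.18e-05) and 1.18 ± 0.08 (adjusted p 2.94e-05) in limma. Gpnmb, a glycoprotein of phagocyte lysosomes, had log2 levels of 9.94 and 10.12 in Gr1hi cells without beads, 11.33 and 11.52 in Gr1hi cells with beads, 6.25 and 6.16 in Gr1lo cells without beads and 8.64 and 8.09 in Gr1lo cells with beads. In limma it was lower in Gr1lo cells, at -3.83 ± 0.17 (adjusted p 3.43e-06) and -3.06 ± 0.17 (adjusted p 8.41e-06), and it was called with beads in both subsets, at 1.40 ± 0.17 (adjusted p 0.0259) in Gr1hi and 2.16 ± 0.17 (adjusted p 0.00186) in Gr1lo cells. The bead-free Gr1lo level is below background, so the rise there was at least 2.62-fold and the bead-free difference between subsets at least 8.3-fold.

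Sorting of hydrolases to the lysosome is done by a phosphotransferase that tags them and receptors and adaptors that carry them. Of 12 such genes, 3 were lower and 2 higher in Gr1lo cells in each state. Called lower in both states were Gnptab, Gga2 and Ap1g1, higher in both states were Igf2r and Gnptg. Of these, Igf2r and Gnptg were below background in at least 1 group. Gnptab, the catalytic part of the phosphotransferase, was lower, at -0.74 ± 0.09 (adjusted p 0.000795) and -1.05 ± 0.09 (adjusted p 0.0001) in limma, and Igf2r, the large mannose phosphate receptor, was higher by 0.67 ± 0.11 (adjusted p 0.00188) with beads. Without beads its Gr1hi level was below background, so the limma call there (adjusted p 6.18e-05) stands for a level at least 1.36-fold higher. With beads, Igf2r and the adaptor Gga2 rose in Gr1hi cells. Igf2r had log2 levels of 6.10 and 6.03 without and 7.11 and 7.38 with beads in Gr1hi cells, and 7.40 and 7.43 without and 7.98 and 7.86 with beads in Gr1lo cells, and Gga2 had 8.09 and 8.12 without and 8.87 and 8.98 with beads in Gr1hi cells, and 7.84 and 7.80 without and 8.16 and 8.29 with beads in Gr1lo cells. Both bead arrays were above both bead-free arrays in each subset, with a limma difference in Gr1hi cells of 0.82 ± 0.09 (adjusted p 0.0177) for Gga2. For Igf2r, called in limma (adjusted p 0.0134) from a level below background, the rise was at least 1.21-fold. Averaged over both subsets Gpnmb, Igf2r and Gga2 were called as well, and Acp5, with log2 levels of 8.19 and 8.48 without and 9.12 and 9.55 with beads in Gr1hi cells, and 10.25 and 10.38 without and 11.35 and 11.23 with beads in Gr1lo cells, rose by 0.99 ± 0.11 (adjusted p 0.00817) in limma.

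Of 15 genes of the MiT/TFE family and lysosomal nutrient sensing, 8 were lower and 0 higher in Gr1lo cells without beads by limma, also at an unadjusted p under 0.05, and 10 were lower and 1 higher with beads, the last being Rptor. Called lower in both states were Mitf, Tfec, Flcn, Fnip1, Rragc, Lamtor1, Lamtor2 and Lamtor4, lower with beads alone were Rragd and Lamtor3, higher with beads alone was Rptor. Of these, Rragd was below background in every group, so its call rests on unresolved levels, and Tfec was below background in at least 1 group. The transcription factors differed among themselves. Tfec had log2 levels of 9.16 and 9.32 in Gr1hi cells without beads, 9.15 and 9.28 in Gr1hi cells with beads, 6.65 and 5.99 in Gr1lo cells without beads and 6.86 and 6.50 in Gr1lo cells with beads, and Mitf had 9.96 and 10.23 without and 10.42 and 10.59 with beads in Gr1hi cells, and 9.11 and 8.77 without and 8.88 and 8.69 with beads in Gr1lo cells. Tfec was called lower in limma (adjusted p 3.63e-05 and 5.38e-05) against Gr1lo levels below background, at least 4.79-fold and 4.72-fold, and Mitf was lower, at -1.15 ± 0.15 (adjusted p 0.000776) and -1.71 ± 0.15 (adjusted p 7.43e-05). Tfeb differed by 0.20 ± 0.11 (adjusted p 0.23) and 0.05 ± 0.11 (adjusted p 0.777) and Tfe3 by -0.19 ± 0.12 (adjusted p 0.325) and -0.29 ± 0.12 (adjusted p 0.124), and neither passed. Flcn, part of the complex that controls these factors, was lower, at -0.99 ± 0.12 (adjusted p 0.000679) and -1.49 ± 0.12 (adjusted p 6.01e-05).

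**Figure D5:**
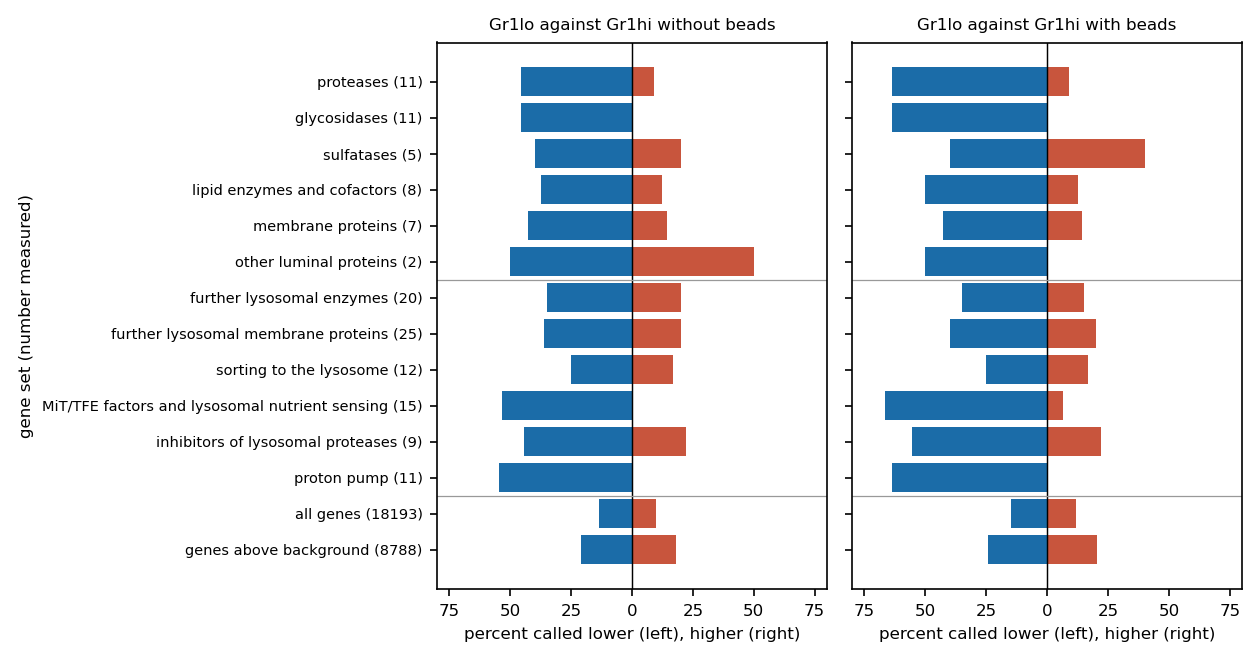
Percent of genes called lower (blue, left of 0) and higher (red, right of 0) in Gr1lo than in Gr1hi monocytes, without beads (left panel) and with beads (right panel), for the substrate groups of the 44 genes, for further lysosome lists, for all genes and for genes above background, with the number measured in brackets. Glycosidases and the proton pump have no red bar in either panel, and all genes have 13.6% lower and 10% higher in the left panel. Bars of the further lists include genes below background.

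The promoter letters shared by these genes were set beside their calls. Promoters from 250 bases before to 50 after the start were matched for 39 of the 44 genes, all but Asah1, Galns, Ctsh, Ctsb and Npc1. CACGTG, which reads the same on both strands, was present in 14 of 39 (35.9%), beside 8.09% of all 27025 genes in the table and 10.2% of the genes on the array. TCACGTGA, which contains it, was present in 6 (15.4%; Ctsa, Ctsd, Dpp7, Gla, Cln3 and Mcoln1) beside 1.12% of all genes and 1.63% of those on the array. Of the 14 genes with CACGTG, 6 were lower and 0 higher in Gr1lo cells without beads by limma (Sgsh was higher at an unadjusted p of 0.0371), and of the 25 matched genes without it, 11 were lower and 4 higher. With beads the counts were 8 lower and 1 higher of 14, and 13 lower and 4 higher of 25. The bead test averaged over both subsets called 1 of the 14 (Lgmn) and 1 of the 25 (Acp2), both higher, beside 0.764% of all genes called. Among the sequences shown, the match lies 99 bases before the start in Ctsd and 74 in Dpp7, both lower in Gr1lo cells, and 122 in Cln3 and 46 in Mcoln1, neither of which passed. A match describes the letters of this window and not binding.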

How the data were processed

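Values are the log2 intensities that the authors deposited, 45101 probe sets by 8 arrays, with no further scaling. The extraction (TRIzol, RNeasy), amplification and hybridisation to an Affymetrix mouse chip are per the labels' protocols, and RMA and limma per the submitters' processing notes, with versions not given in the sources used here. RMA shrinks large differences and gives no measure of depth, so the number of arrays limits precision.

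Probe sets with 1 symbol (34945) were kept, and 932 with several, 9160 with none listed and 64 controls were left out. Of those kept, 34741 matched RefSeq symbols of GRCm38.p6 by Entrez number. The probe set with the highest mean represented each of 18193 genes. A mean per group was estimated from the 8 arrays together in limma 3.58.1 (lmFit and eBayes) in R 4.3.3, with Benjamini-Hochberg adjustment over all genes and calls at an adjusted p under 0.05. Tests were two-sided. The fit was tested on simulated data. Tables and plots were made with pandas 2.3.3 and matplotlib 3.10.9 in Python 3.11.15. The 44 genes, the further lists and the markers were chosen with earlier results of these data known. Values on every array are given for those of the 44 genes that were called and for the smallest p of each substrate group, while called genes of the further lists are named, with values for some.

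Alternatives were a filter on genes under background, the mean of all probe sets, every probe set, the compared groups alone, trended robust variances, median centring, cyclic loess, the replicate block and leaving out each array. A block within each subset was added after seeing the data.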

Additional observations from a re-analysis of the deposited data

How the results depend on the processing

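Of 77 named differences, 56 were called, and 36 of these stayed called under every one of up to 17 settings, while 20 were lost under at least 1 and 0 changed sign. The least stable were Fuca1 with beads (lost under 13), Laptm5 without beads (10) and Grn with beads (9). Between the subsets, 21 to 29 of the 44 genes were called without beads and 25 to 33 with beads when all arrays were kept, against 24 and 29 as reported, and 16 to 25 and 22 to 28 with 1 array left out. For beads in Gr1hi cells, 1 as reported, the count was 0 with the mean of all probe sets, 2 with every probe set, 3 with trended robust variances and 0 to 1 with 1 array left out. For Gr1lo cells, 0 as reported by limma (11 at an unadjusted p under 0.05), it was 0 to 2 with 1 array left out (2 without bead-free Gr1lo array 2). Averaged, 2 as reported, it was 5 with trended robust variances and 0 to 4 with 1 array left out, and for the difference of bead effects 0 to 1, the highest of both again without bead-free Gr1lo array 2. Deviations from group means of same-numbered arrays correlated at 0.60 within Gr1hi and 0.37 within Gr1lo cells but at 0.04 to 0.09 between subsets. The numbers were therefore not taken to pair arrays across subsets. Within a subset, arrays with and without beads may be paired, which the reported bead fit leaves out and the block within each subset takes in. With the replicate block the counts were 0 (Gr1hi beads), 0 (Gr1lo beads), 2 (averaged), 25 and 30 (subsets, without and with beads). With the block within each subset they were 2, 0, 4, 26 and 31, the gene gained in Gr1hi cells being Lgmn (0.67 ± 0.07, adjusted p 0.0285 by limma). Arsb with beads in Gr1hi cells, not called, went from -0.20 to 0.003 with the mean of all probe sets. The cause of these shifts was not tested.

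Over all genes, calls for beads in Gr1hi cells went from 45 to 121 (trended robust), 68 (every probe set), 102 (block within subset) and 0 to 58 (1 array left out). In Gr1lo cells they went from 41 to 127 (trended robust), 106 (block within subset), 12 (compared groups alone) and 17 to 354 (1 array left out), and averaged from 139 to 326 (trended robust), 219 (every probe set), 332 (block within subset), 222 (genes above background) and 29 to 428 (1 array left out). For the difference of bead effects they went from 8 to 17 (trended robust), 13 (every probe set), 5 (genes above background, and mean of all probe sets) and 1 to 167 (1 array left out). The 354, 428 and 167 are each without bead-free Gr1lo array 2. With every probe set tested, 7277 and 8302 calls were made between the subsets, against 4288 and 4817, and with 1 Gr1hi array left out as few as 2631 and 3267. Cyclic loess moved the share of higher calls for the difference of bead effects from 25% to 0% of 6, and moved the median of all genes by less than 0.1 log2 units in each comparison.

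With 2 arrays per group, standard errors of a bead difference within a subset ran from 0.08 to 0.18 log2 units over the 44 genes, and levels below background (Gla in Gr1lo cells, and genes of the further lists so named) are not resolved. A fit with 1 array left out assumes that the lone array of that group varies like the others. The block within each subset was chosen after seeing the data.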

Other observations

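Genes for protease inhibitors and for the proton pump were also measured. Of 9 measured inhibitors, 4 were lower and 2 higher in Gr1lo cells without beads, and 5 were lower and 2 higher with beads. Called lower in both states were Cst7, Cstb, Stfa2l1 and Stfa3, lower with beads alone was Serpinb1a, higher in both states were Cst3 and Serpinb6a. Of these, Cst7, Stfa2l1 and Stfa3 were below background in every group, so their calls rest on unresolved levels, and Serpinb1a was below background in at least 1 group. Cstb, the cytosolic cystatin B, had log2 levels of 13.48 and 13.51 in Gr1hi cells without beads, 13.63 and 13.66 in Gr1hi cells with beads, 12.14 and 11.93 in Gr1lo cells without beads and 11.95 and 11.75 in Gr1lo cells with beads. Every Gr1lo array lay below every Gr1hi array, with limma differences of -1.46 ± 0.10 (adjusted p 4.04e-05) without and -1.79 ± 0.10 (adjusted p 1.17e-05) with beads. Cst3, the secreted cystatin C, went the other way, at 0.59 ± 0.08 (adjusted p 0.00105) and 0.52 ± 0.08 (adjusted p 0.00154) in limma. Serpinb6a, a cytosolic serpin, had log2 levels of 7.41 and 7.58 without and 8.08 and 8.15 with beads in Gr1hi cells, and 10.53 and 10.75 without and 10.69 and 10.996 with beads in Gr1lo cells, and its limma differences were 3.14 ± 0.13 (adjusted p 2.26e-06) and 2.73 ± 0.13 (adjusted p 3.61e-06).

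Of 11 measured proton pump genes, 6 were lower in Gr1lo cells without beads and 7 with beads, and 0 were higher by limma in either state, also at an unadjusted p under 0.05. Called lower in both states were Atp6v0d1, Atp6v1a, Atp6v1b2, Atp6v1h, Atp6v0a1 and Atp6v1c1, lower with beads alone was Atp6ap2. Atp6v1a, the catalytic subunit that binds ATP, had log2 levels of 10.87 and 10.80 in Gr1hi cells without beads, 11.20 and 11.18 in Gr1hi cells with beads, 9.76 and 9.68 in Gr1lo cells without beads and 9.69 and 9.66 in Gr1lo cells with beads, with limma differences of -1.11 ± 0.08 (adjusted p 4.46e-05) without and -1.51 ± 0.08 (adjusted p 7.54e-06) with beads. Atp6v1c1 differed by -0.72 ± 0.08 (adjusted p 0.000486) and -1.16 ± 0.08 (adjusted p 3.26e-05). With beads, 0 of the 11 pump genes were called by limma in either subset. At an unadjusted p under 0.05 were 2 in Gr1hi and 1 in Gr1lo cells, beside 1806 and 2402 of all 18193 genes.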
